A study of Homo sapiens with 12 samples.

Results

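The collagen genes, 44 protein-coding genes whose symbols have the form COL, number, A, number, were followed in the RNA of VCaP prostate cancer cells that differ in line and in testosterone (T). They were found by symbol among the 58381 genes counted, and 26 of the 44 had a mean of 10 or more counts in at least 1 group and are described here. VCaP is an established line from a prostate cancer metastasis that expresses the androgen receptor. Poly(A) RNA was sequenced from 4 groups of 3 libraries each. VCaP-T, a subclone made by 7 months of culture in 10 nM T, was maintained at 10 nM T or depleted, with 48 h spent at 0.1 nM T. The other line, VCaP-CT, a subclone made from VCaP-T by 10 months of culture at 0.1 nM T, was maintained at 0.1 nM T or rechallenged with 10 nM T for 48 h. All cells were in medium with charcoal-stripped serum, VCaP-T at passage 84 and VCaP-CT at passage 73. Below, maintained VCaP-T are the libraries at 10 nM T and maintained VCaP-CT those at 0.1 nM T, so that the maintained lines differ in line and in T together. Each line is 1 such culture, so the line and its own culture history cannot be told apart, and whether the 3 libraries of a group came from separate cultures is not given in the sources used here; p-values here thus reflect how far these libraries differ, which may be technical.

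Collagens are built from 3 alpha chains wound around each other in a helix, either 3 copies of 1 chain or a mix of chains from different genes. Fibrillar collagens form the ropes of connective tissue, type IV collagen forms the sheets of basement membranes under epithelia, type VI forms beaded filaments, and the fibril-associated types sit on the surface of fibrils. In the prostate, fibroblasts and smooth muscle make most of the fibrillar collagen, while epithelial cells contribute to the basement membrane they rest on.

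Libraries held 30.2 to 40.8 M counted fragments. Levels are given in normalized counts, which are counts scaled between libraries by TMM, and are compared between genes only as FPKM, which divides the fragments counted by the length of the exons and the size of the library. Within groups the libraries correlated at 0.9933 or more across genes, except that replicate 2 of depleted VCaP-T correlated at as little as 0.9653 with its group. All 9 markers of prostate luminal epithelium were above a mean of 10 counts. Of 12 markers of fibroblasts and smooth muscle, 7 were under that mean (DCN, PDGFRA, THY1, FAP, MYH11, CNN1 and DES) and MYH11 was at 0 in each library. The summed level of these 12 markers was 581 to 636 normalized counts in maintained VCaP-T, 1046 to 1250 after depletion, 1576 to 1738 in maintained VCaP-CT and 529 to 542 after rechallenge. LUM, which encodes the collagen-binding proteoglycan lumican and is one of the 12, had means of 20.5, 299.8, 886 and 65.9 normalized counts in the same order. Other markers of the list did not all follow it: FBLN1 had 180.6, 313, 183 and 64.4, TAGLN 348, 483, 461 and 333, PDGFRB 21.5, 27.1, 95.4 and 37.3, and ACTA2 30.5, 46.9, 24.2 and 32.5. In bulk RNA, fewer cells of a kind and less RNA per cell cannot be told apart, and the part of any other cell type in the collagen levels was not tested.

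**Figure D1:**
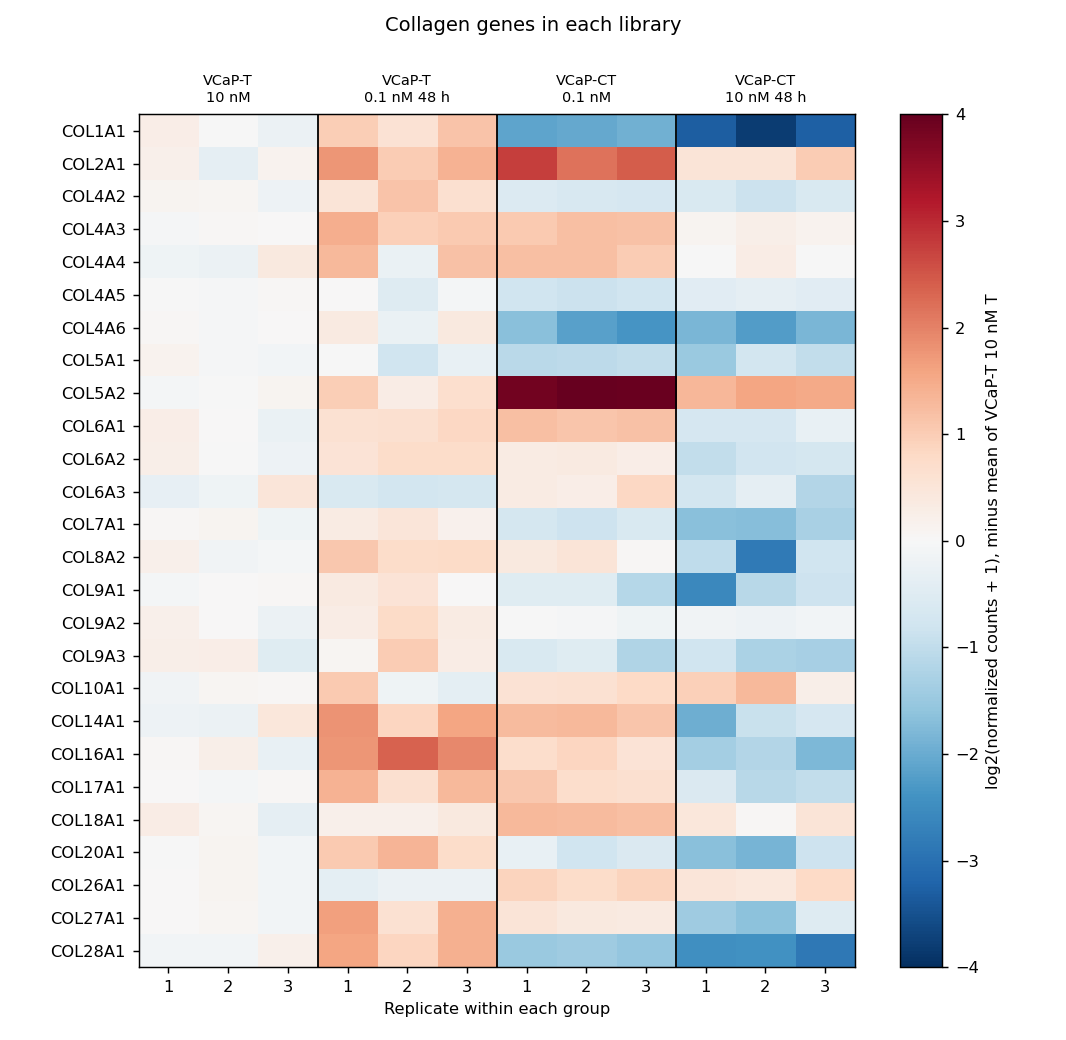
Level of the 26 described collagen genes in each of the 12 libraries, as log2(normalized counts + 1) minus the mean of maintained VCaP-T, in color; columns are replicates 1 to 3 of each group. In both lines most rows are redder at low T than at high T, COL5A2 is reddest in maintained VCaP-CT, and COL1A1 and COL28A1 are blue in VCaP-CT in both media.

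Collagen RNA was low in these cells, and its most abundant chains came from several collagen types. COL4A5, a chain of type IV collagen, was the highest of the 44 in FPKM in maintained VCaP-T (5.83 ± 0.144, SD, n = 3), ahead of COL9A2 (2.98 ± 0.426), COL4A2 (2.75 ± 0.320), COL6A1 (2.17 ± 0.388) and COL26A1 (1.61 ± 0.119). COL9A2 and COL4A2 lay within their spread of each other. In maintained VCaP-CT the order was led by COL6A1 (4.81 ± 0.161 FPKM), then COL4A5 (3.32 ± 0.0712), COL26A1 (2.87 ± 0.163), COL9A2 (2.81 ± 0.138) and COL5A2 (2.12 ± 0.202), of which COL26A1 and COL9A2 did not differ beyond their spread. The median of the 26 genes was 0.159 FPKM in maintained VCaP-T, 0.398 after depletion, 0.211 in maintained VCaP-CT and 0.101 after rechallenge.

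Lowering T raised several collagen genes in VCaP-T, and adding T lowered several in VCaP-CT. A gene was called at an adjusted p under 0.01 from edgeR's quasi-likelihood test over all 19162 genes tested, a log2 fold change past 1 in either direction and group medians more than 13 normalized counts apart. All 26 described genes were tested. On depletion 7 collagen genes rose (COL2A1, COL4A3, COL14A1, COL16A1, COL17A1, COL27A1 and COL28A1) and 0 fell, 26.9% of those tested, where 3.14% of all genes tested were called, 2.46% as rising and 0.678% as falling. At the adjusted p alone, whatever the size of the change, 11 were higher (6.15% of all genes) and 0 lower (3.83% of all genes); the 4 added were COL1A1, COL4A2, COL6A1 and COL6A2. That 0 collagen genes fell held for edgeR and for DESeq2, and 2 were lower at an unadjusted p under 0.05. The share of all genes at that unadjusted p was not counted. The smallest adjusted p among the 4 genes with a negative change was 0.104, for COL26A1. The log2 fold change was above 0 for 22 of the 26, against 53.6% of all genes, with a median of 0.69 for the collagen genes and 0.04 for all genes. The libraries of the 2 groups did not overlap for 16 collagen genes that were higher after depletion (20.4% of all genes) and for 2 that were lower, COL6A3 and COL26A1 (17.6% of all genes).

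On rechallenge 10 collagen genes fell (COL1A1, COL2A1, COL5A2, COL6A1, COL6A2, COL14A1, COL16A1, COL17A1, COL27A1 and COL28A1) and 0 rose, 38.5% of those tested, where 5.14% of all genes were called, 3.3% as falling and 1.83% as rising. By DESeq2 0 rose too, and 1 was higher at an unadjusted p under 0.05, a cutoff at which all genes were not counted. At the adjusted p alone 14 were lower (7.19% of all genes) and 0 higher (7.07%); the 4 added were COL4A3, COL7A1, COL8A2 and COL18A1. The log2 fold change was above 0 for 4 of the 26, against 48.5% of all genes, and the median was -1.03 for the collagen genes and -0.02 for all genes. The groups did not overlap for 17 collagen genes that were lower (28.3% of all genes) and for 1 that was higher, COL4A5 (27.4%). COL4A5 had the smallest adjusted p of the 4 genes with a positive change, 0.0272. Depletion and rechallenge share no libraries. The genes called in both were 6, COL2A1, COL14A1, COL16A1, COL17A1, COL27A1 and COL28A1, which is 85.7% of the 7 that rose on depletion and 60% of the 10 that fell on rechallenge.

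**Figure D2:**
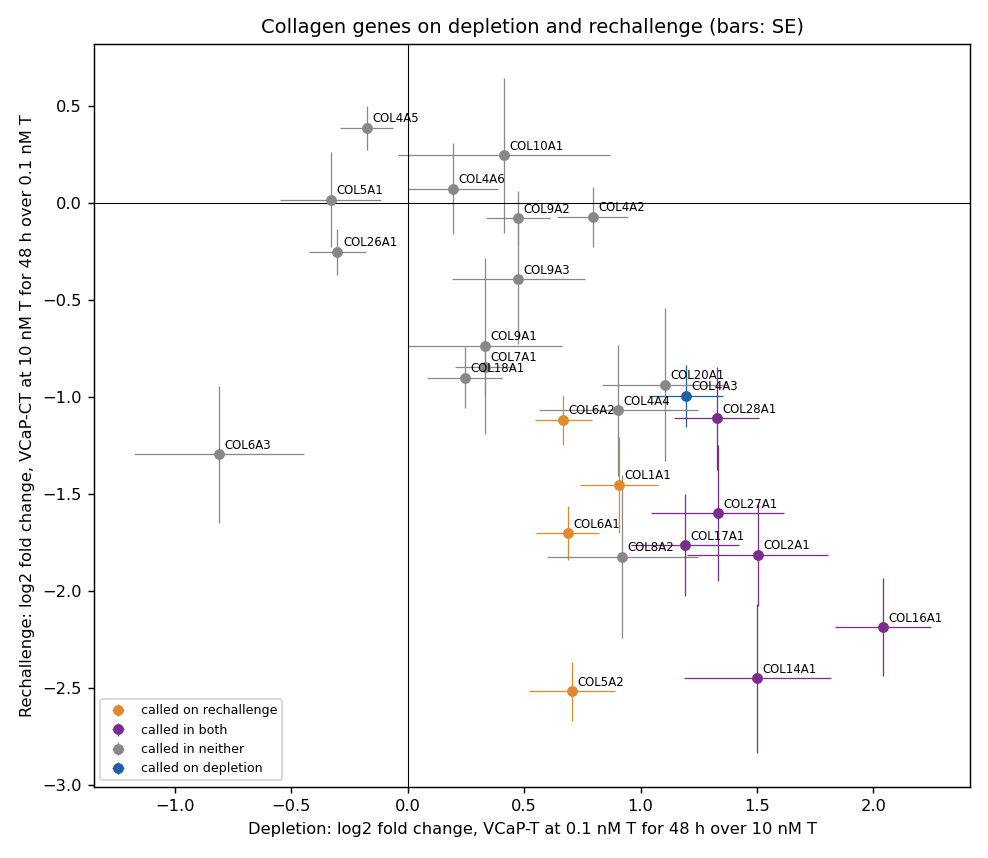
Log2 fold change of the 26 described collagen genes on depletion of VCaP-T (x axis) and on rechallenge of VCaP-CT (y axis), with bars of 1 SE; colors mark where a gene was called. The 6 genes called in both lie at the lower right, and COL4A3 just above -1 on the y axis was called on depletion alone. COL6A3 lies at the lower left with -0.81 and -1.30, and COL26A1 lies there too, nearer the origin, with -0.30 and -0.25.

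The calls on depletion depended on single libraries. Left out in turn, each library of the 2 groups other than replicate 2 of depleted VCaP-T reduced the 7 calls to 3 or 4. Of all genes, 2.07% to 3.37% were called in these fits, against 3.14% with all libraries. Without replicate 2 of depleted VCaP-T there were 9 calls, the 7 plus COL1A1 and COL4A4, where 3.65% of all genes were called. COL4A3, COL16A1 and COL28A1 were called in all 6 of these fits. With the 6 libraries of depletion fitted alone, COL16A1 was the 1 collagen gene called, among 1.2% of all genes. On rechallenge the same omissions left 8 to 10 calls (4.12% to 4.25% of all genes), and the fit of its own 6 libraries gave 11 (6.42% of all genes). COL8A2 was added there without replicate 3 of rechallenged VCaP-CT (log2 fold change -2.31, adjusted p = 0.00857).

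**Figure D3:**
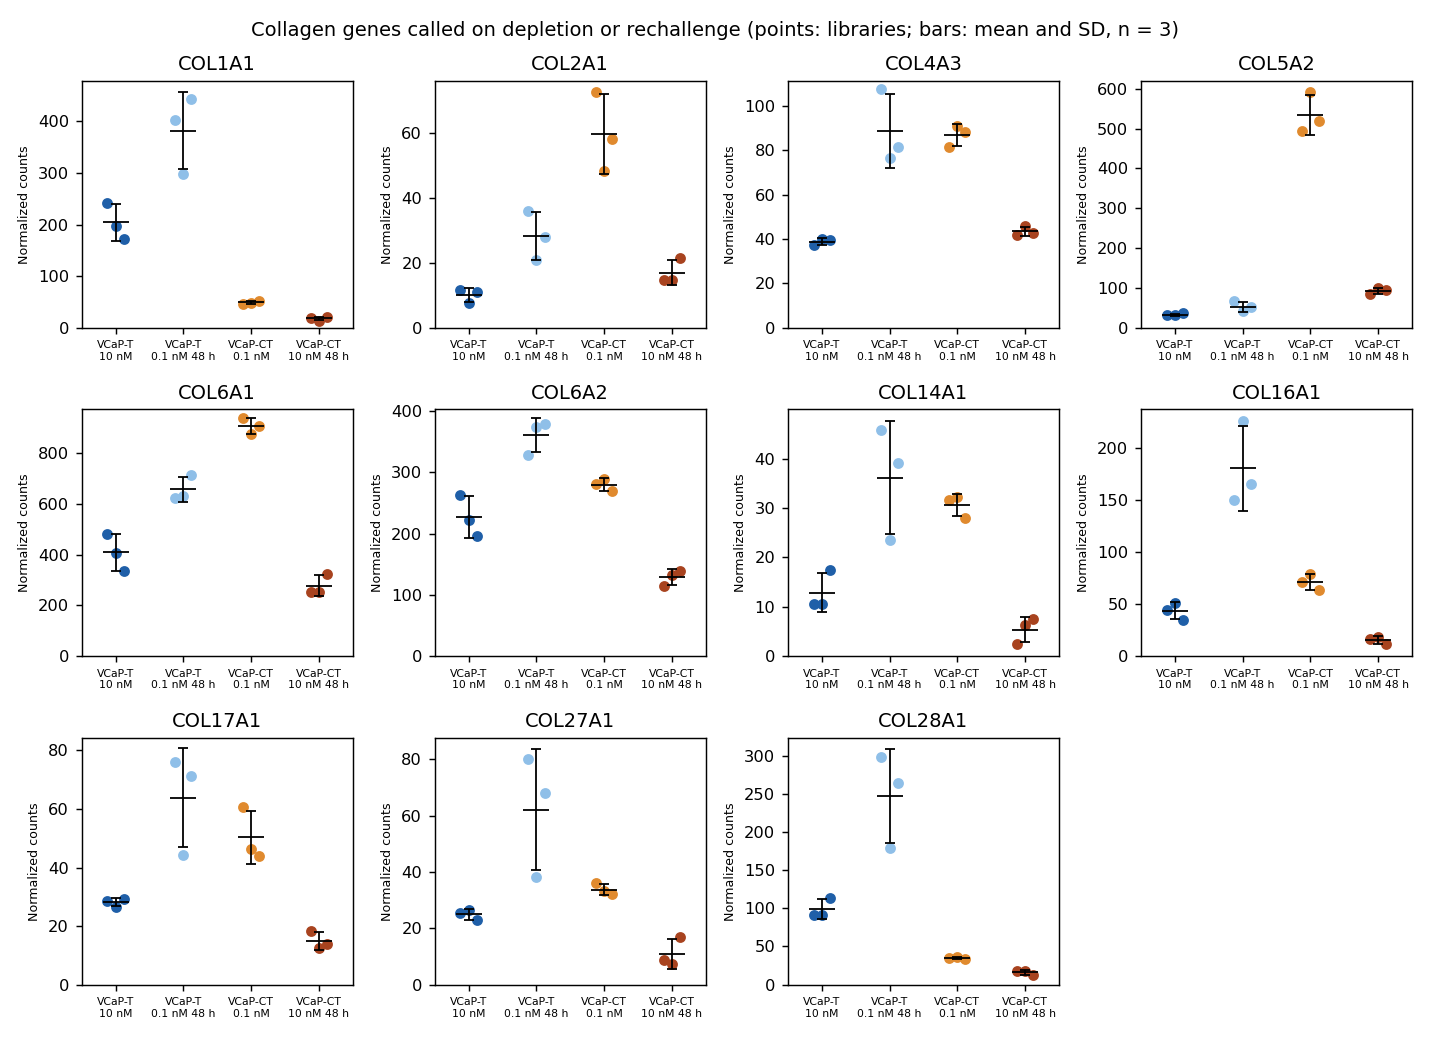
Normalized counts of the 11 collagen genes called on depletion or rechallenge, 1 panel per gene, with a point per library and bars for the mean and SD of each group (n = 3). In COL5A2 the VCaP-CT libraries at 0.1 nM T stand alone at 493 to 592; in COL1A1 and COL28A1 all VCaP-T libraries lie above all VCaP-CT libraries; in COL16A1 the groups fall in the order depleted VCaP-T, VCaP-CT, VCaP-T, rechallenged VCaP-CT.

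Of 11 fibrillar collagen genes, 5 were described, and they moved in different directions between the lines. COL5A2 (ENSG00000204262.11, chromosome 2, 189031896 to 189179879 of GRCh38, minus strand) encodes the alpha 2 chain of type V collagen, a minor component that starts and limits the growth of type I fibrils. It had 30.8, 32.3 and 35.7 normalized counts in maintained VCaP-T and 65.9, 40.8 and 52.6 after depletion. In VCaP-CT it had 493, 592 and 520 at 0.1 nM T and 84.9, 99.7 and 95.0 after rechallenge. Every VCaP-CT library lay above every VCaP-T library, and the rechallenged libraries fell far below those kept at 0.1 nM T without reaching the VCaP-T level. COL5A2 was 16.2-fold higher in maintained VCaP-CT than in maintained VCaP-T (log2 fold change 4.01, SE 0.17, adjusted p = 4.12e-09), the largest difference among the collagen genes in that comparison. It fell on rechallenge (log2 fold change -2.52, SE 0.15, adjusted p = 4.1e-07), and on depletion it had a log2 fold change equal to 0.70 (SE 0.19, adjusted p = 0.019). Its partner in the common form of type V collagen, COL5A1 (ENSG00000130635.15, chromosome 9, 134641774 to 134844843), went the other way: it had 75.4, 65.6 and 63.1 normalized counts in maintained VCaP-T and 31.7, 32.2 and 34.1 in maintained VCaP-CT (log2 fold change -1.06, SE 0.23, adjusted p = 0.00245). After depletion it had 66.8, 38.3 and 54.7, overlapping its level before, and after rechallenge 23.4, 40.5 and 34.1 (adjusted p = 0.293 and 0.975). The difference between the lines in COL5A1 was no longer called without replicate 1 of VCaP-T (log2 fold change -0.98, adjusted p = 0.012) or without replicate 1 or 2 of maintained VCaP-CT (adjusted p = 0.0127 and 0.0116). Per length, COL5A1 and COL5A2 were at 0.173 ± 0.0164 and 0.131 ± 0.00993 FPKM in maintained VCaP-T but at 0.0828 ± 0.00320 and 2.12 ± 0.202 in maintained VCaP-CT. COL5A3, the other type V chain, had 2 counts in all 12 libraries together.

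COL1A1 (ENSG00000108821.13, chromosome 17, 50183289 to 50201632, minus strand) encodes the main chain of type I collagen, the chief protein of connective tissue and bone. It had 242, 198 and 172 normalized counts in maintained VCaP-T and 402, 299 and 444 after depletion. VCaP-CT had 46.2, 48.3 and 52.1 at 0.1 nM T and 19.7, 13.5 and 20.3 after rechallenge. The 4 groups did not overlap. COL1A1 was lower in VCaP-CT than in VCaP-T between the maintained lines (log2 fold change -2.06, SE 0.19, adjusted p = 3.76e-06), at 0.1 nM T (-2.97, SE 0.19) and at 10 nM T (-3.51, SE 0.23). It fell on rechallenge (log2 fold change -1.45, SE 0.25, adjusted p = 0.00113). On depletion its adjusted p was 0.00288, but its log2 fold change of 0.91 (SE 0.17) was under the threshold; without replicate 2 of depleted VCaP-T it was 1.05 (adjusted p = 1.07e-06) and without replicate 1 of maintained VCaP-T also 1.05 (adjusted p = 0.00431), past the threshold. COL1A2, whose chain pairs with that of COL1A1 in ordinary type I collagen, had 3 counts in all 12 libraries together, against 1983 for COL1A1. Of the 20 genes nearest COL1A2, 8 had a mean of 100 or more counts and 6 under 1. COL3A1, type III collagen, had 21 counts in all, in 0 to 5.68 normalized counts per library.

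COL2A1 (ENSG00000139219.18, chromosome 12, 47972965 to 48004554, minus strand), the collagen of cartilage, had 11.7, 7.61 and 10.98 normalized counts in maintained VCaP-T and 35.9, 21.0 and 27.9 after depletion (log2 fold change 1.50, SE 0.30, adjusted p = 0.00468). VCaP-CT had 72.7, 48.3 and 58.1 at 0.1 nM T and 14.8, 14.6 and 21.3 after rechallenge (log2 fold change -1.81, SE 0.26, adjusted p = 0.000358). It was low at 10 nM T in both lines and high at 0.1 nM T in both, and highest in VCaP-CT. The maintained lines differed by 2.56 on the log2 scale (SE 0.28, adjusted p = 1.48e-05). COL27A1 (ENSG00000196739.14, chromosome 9, 114155560 to 114312511), a fibrillar collagen of developing cartilage, had 25.5, 26.6 and 22.9 normalized counts in maintained VCaP-T and 80.1, 38.3 and 68.1 after depletion (log2 fold change 1.33, SE 0.29, adjusted p = 0.00678). In VCaP-CT the level was 35.9, 33.1 and 32.1 at 0.1 nM T and 8.61, 7.27 and 17.1 after rechallenge (log2 fold change -1.60, SE 0.35, adjusted p = 0.00559). Neither gene's groups overlapped within a line. The depletion calls of both were lost when any library of the comparison other than replicate 2 of depleted VCaP-T was left out, with an adjusted p of 0.0115 to 0.0281 for COL2A1 and 0.0193 to 0.0344 for COL27A1. The rechallenge call of COL27A1 was lost without any 1 of the 3 VCaP-CT libraries at 0.1 nM T or without replicate 1 or 2 of the rechallenged ones (adjusted p = 0.0157 to 0.0318).

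Of the 6 type IV collagen genes of basement membranes, which lie in pairs with their starts facing away from each other, 5 were described. The pairs differed in how alike their members were. COL4A3 (ENSG00000169031.19, chromosome 2, 227164565 to 227314792) and COL4A4 (ENSG00000081052.12, chromosome 2, 227002711 to 227164453, minus strand), whose chains join with that of COL4A5 in the basement membrane of the kidney filter, start 112 bases apart. COL4A3 had 37.2, 39.9 and 39.4 normalized counts in maintained VCaP-T, 107.7, 76.6 and 81.5 after depletion, 81.3, 90.9 and 88.2 in maintained VCaP-CT, and 41.8, 45.7 and 42.7 after rechallenge. Its level at 0.1 nM T overlapped between the lines (88.6 ± 16.7 and 86.8 ± 4.94), and that at 10 nM T was a little higher in VCaP-CT, with no overlap (38.8 ± 1.46 and 43.4 ± 2.04). It rose on depletion (by 1.20 on the log2 scale, SE 0.16, adjusted p = 0.000338), and on rechallenge its adjusted p was 0.000732 with a log2 fold change of -0.995 (SE 0.16), just under the fold threshold; without replicate 1 of maintained VCaP-CT or replicate 2 of rechallenged VCaP-CT it was -1.04 and called (adjusted p = 0.00272 and 0.00368). The 2 lines differed when maintained (log2 fold change 1.16, SE 0.16, adjusted p = 9.97e-05) and were not called at a shared T level (log2 fold change -0.04, SE 0.15, at 0.1 nM T and 0.16, SE 0.17, at 10 nM T). COL4A4 had 20.2, 19.0 and 30.2 normalized counts in maintained VCaP-T, 56.8, 18.5 and 52.6 after depletion, 53.1, 53.0 and 47.1 in maintained VCaP-CT, and 22.2, 28.1 and 22.4 after rechallenge. As with COL4A3, the mean of each group at 0.1 nM T was above that of each group at 10 nM T, but replicate 2 of depleted VCaP-T lay at the undepleted level. COL4A4 was not called on depletion with all libraries (log2 fold change 0.905, SE 0.34, adjusted p = 0.0775) and was called without replicate 2 (1.23, adjusted p = 0.00022). On rechallenge it had a log2 fold change equal to -1.07 (SE 0.34, adjusted p = 0.0373).

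COL4A2 (ENSG00000134871.17, chromosome 13, 110305812 to 110513027) had 913, 886 and 731 normalized counts in maintained VCaP-T, 1206, 1863 and 1322 after depletion, 580.2, 534 and 529 in maintained VCaP-CT, and 551, 466 and 546 after rechallenge. All depleted libraries lay above all others, and the VCaP-CT groups overlapped. COL4A2 was lower in VCaP-CT than in depleted VCaP-T (log2 fold change -1.42, SE 0.15, adjusted p = 1.61e-05), and on depletion it had a log2 fold change equal to 0.79 (SE 0.15, adjusted p = 0.00334), under the fold threshold. COL4A1 (ENSG00000187498.14, chromosome 13, 110148963 to 110307149, minus strand), whose chain joins with that of COL4A2 in the common basement membrane trimer, had 10 counts in all 12 libraries together, against 10005 for COL4A2. Of the 20 genes nearest COL4A1, 1 had a mean under 1 count and 13 had a mean of 100 or more. The annotated extents of the pair overlap at their starts.

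COL4A5 (ENSG00000188153.13, chromosome X, 108439844 to 108697545) and COL4A6 (ENSG00000197565.15, chromosome X, 108155607 to 108439497, minus strand) start 347 bases apart. COL4A6 had 218, 207 and 213 normalized counts in maintained VCaP-T, 271, 177 and 280.5 after depletion, 66.8, 46.4 and 41.1 in maintained VCaP-CT, and 59.1, 44.7 and 59.7 after rechallenge. It was lower in VCaP-CT in each comparison of the lines, with log2 fold changes of -2.04 (SE 0.22, adjusted p = 1.08e-05) between the maintained lines, -2.23 at 0.1 nM T and -1.97 at 10 nM T. Its groups overlapped on depletion and on rechallenge (log2 fold changes 0.20 and 0.07). COL4A5 had 2431, 2381 and 2501 normalized counts in maintained VCaP-T, 2458, 1695 and 2310.0 after depletion, 1415, 1356 and 1394 in maintained VCaP-CT, and 1779, 1886 and 1779 after rechallenge. It was also lower in VCaP-CT, by a smaller step (log2 fold change -0.81, SE 0.11, adjusted p = 0.000113, under the fold threshold). Per length, COL4A6 was at 0.650 FPKM to 5.83 for COL4A5 in maintained VCaP-T and at 0.157 to 3.32 in maintained VCaP-CT.

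Sequences near the paired starts are shown because the members of each pair are set against each other above. The first is the whole stretch between the starts of COL4A4 and COL4A3. The second lies between the start of COL4A1 and the next annotated COL4A2 exon beyond it (Gencode 44), so it is inside the COL4A2 gene as counted here but overlaps none of its exons. The third is the part of the COL4A6 to COL4A5 gap nearest COL4A5. They are the plus strand of GRCh38.p14 from RefSeq, with the GC box (GGGCGG) and the CCAAT box in capitals on either strand.
COL4A4 and COL4A3, chr2:227164454-227164564: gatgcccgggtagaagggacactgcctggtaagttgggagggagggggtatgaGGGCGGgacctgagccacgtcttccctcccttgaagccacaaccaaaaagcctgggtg
COL4A1 and COL4A2, chr13:110307158-110307257: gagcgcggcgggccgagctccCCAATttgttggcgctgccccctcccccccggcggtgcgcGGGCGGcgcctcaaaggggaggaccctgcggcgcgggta
COL4A6 and COL4A5, chrX:108439588-108439837: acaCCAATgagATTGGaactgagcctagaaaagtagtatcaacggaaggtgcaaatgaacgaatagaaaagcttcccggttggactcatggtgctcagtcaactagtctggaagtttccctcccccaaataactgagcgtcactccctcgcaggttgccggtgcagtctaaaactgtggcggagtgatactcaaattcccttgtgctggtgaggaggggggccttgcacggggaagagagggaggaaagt
The first window holds 1 GC box in 111 bases, the second 1 GC box and 1 CCAAT box in 100 bases, and the third 2 CCAAT boxes in 250 bases, facing in opposite directions. The share of G and C was 61.3%, 78.0% and 51.2%.

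**Figure D4:**
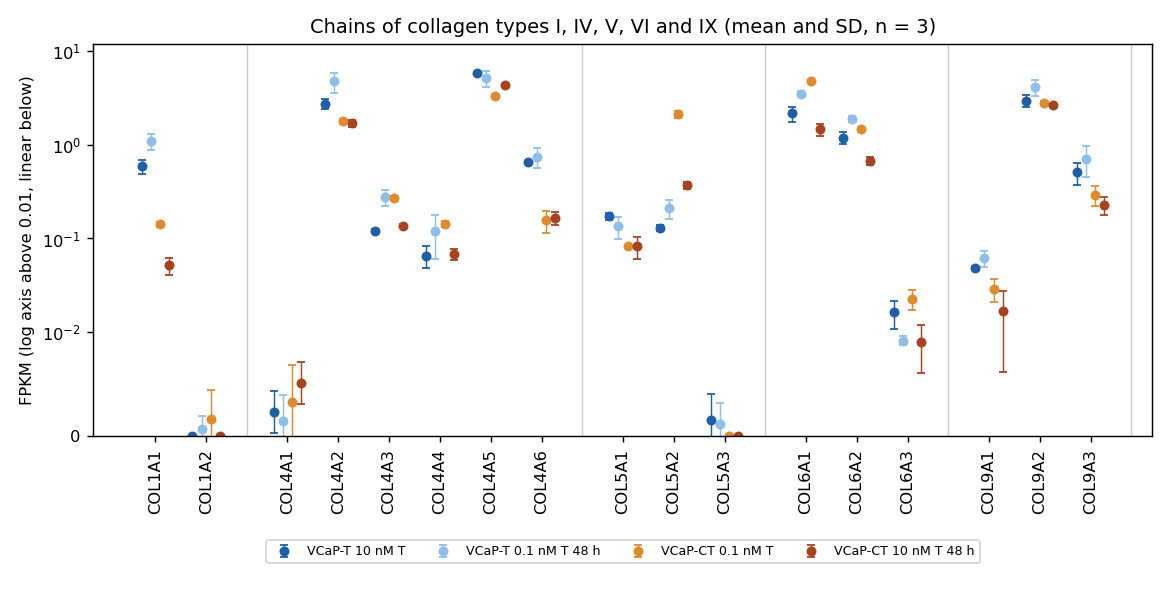
FPKM of the chains of collagen types I, IV, V, VI and IX in the 4 groups, mean and SD of 3 libraries, on an axis that is logarithmic above 0.01 and linear below. COL1A2, COL4A1 and COL5A3 lie under 0.01 beside partners at up to 1.10, 4.77 and 2.12, and COL6A3 lies at 0.00903 to 0.0226 beside COL6A1 at 1.48 to 4.81.

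Type VI collagen, a filament that links cells to the matrix around them, is built from 1 chain each of COL6A1, COL6A2 and usually COL6A3. COL6A1 (ENSG00000142156.14, chromosome 21, 45981737 to 46005050) had 482, 407 and 336 normalized counts in maintained VCaP-T and 623, 632 and 715 after depletion. Values in VCaP-CT were 936, 876 and 907 at 0.1 nM T and 254, 255 and 325 after rechallenge. Its neighbor COL6A2 (ENSG00000142173.14, chromosome 21, 46098097 to 46132849) had 263, 222 and 197, then 329, 374 and 379.5 in VCaP-T, and 281, 289.7 and 269.5, then 114, 133 and 139 in VCaP-CT, in the same order of groups. In each line both genes were higher at low T, with no overlap of libraries. COL6A1 fell on rechallenge by 1.70 on the log2 scale (SE 0.14, adjusted p = 4.35e-06) and COL6A2 by 1.12 (SE 0.13, adjusted p = 6.47e-05). On depletion the log2 fold changes of 0.69 (SE 0.14, adjusted p = 0.0041) and 0.67 (SE 0.12, adjusted p = 0.00279) were under the fold threshold. COL6A1 was higher in VCaP-CT between the maintained lines (log2 fold change 1.15, SE 0.14, adjusted p = 2.66e-05), where COL6A2 had 0.30 (SE 0.12, adjusted p = 0.0659). COL6A3, the longest of the 3 chains, had 8.49, 9.51 and 15.6 normalized counts in maintained VCaP-T, 6.68, 6.17 and 6.19 after depletion, 13.7, 13.3 and 20.0 in maintained VCaP-CT, and 6.15, 8.31 and 4.27 after rechallenge. Its libraries did not overlap within either line, and it was the 1 described collagen gene with a negative log2 fold change past 0.5 in both, -0.81 on depletion (SE 0.37, adjusted p = 0.133) and -1.30 on rechallenge (SE 0.35, adjusted p = 0.0188), neither of which was called.

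COL28A1 (ENSG00000215018.9, chromosome 7, 7356203 to 7535853, minus strand), a collagen with von Willebrand factor A domains like those of type VI, had 91.3, 91.3 and 113.5 normalized counts in maintained VCaP-T and 298, 179 and 264 after depletion. In VCaP-CT it had 34.2, 36.0 and 33.1 at 0.1 nM T and 17.2, 17.7 and 12.8 after rechallenge. It was thus higher at low T in each line and lower in VCaP-CT than in VCaP-T at both levels. It rose on depletion (by 1.33 on the log2 scale, SE 0.18, adjusted p = 0.000421) and fell on rechallenge (-1.11, SE 0.27, adjusted p = 0.00911), and VCaP-CT was lower between the maintained lines (-1.52, SE 0.21, adjusted p = 9.75e-05), at 0.1 nM T (-2.84, SE 0.20) and at 10 nM T (-2.63, SE 0.24). The rechallenge call did not hold when any 1 of its 6 libraries was left out (adjusted p = 0.0226 to 0.0433).

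Of 10 fibril-associated collagen genes, 6 were described. COL16A1 (ENSG00000084636.17, chromosome 1, 31652247 to 31704319, minus strand), which encodes a minor collagen of skin and cartilage matrix, had the largest change on depletion among the collagen genes called. It had 44.6, 51.3 and 34.8 normalized counts in maintained VCaP-T and 149, 226 and 165 after depletion (log2 fold change 2.04, SE 0.21, adjusted p = 4.09e-05). VCaP-CT had 71.0, 78.6 and 63.1 at 0.1 nM T and 16.0, 18.7 and 11.7 after rechallenge (log2 fold change -2.19, SE 0.25, adjusted p = 6.61e-05). The 4 groups did not overlap, and the level of maintained VCaP-CT lay between those of maintained VCaP-T and of depleted VCaP-T. COL14A1 (ENSG00000187955.11), which binds to the surface of type I fibrils, had 10.6, 10.46 and 17.4 normalized counts in maintained VCaP-T and 45.9, 23.5 and 39.2 after depletion (log2 fold change 1.50, SE 0.32, adjusted p = 0.00616). In VCaP-CT the level was 31.7, 32.2 and 28.1 at 0.1 nM T and 2.46, 6.23 and 7.47 after rechallenge (log2 fold change -2.45, SE 0.38, adjusted p = 0.000605). High and low T gave separate sets of libraries in both lines. The depletion call of COL14A1 was lost without replicate 1 or 2 of maintained VCaP-T or without replicate 1 or 3 of depleted VCaP-T (adjusted p = 0.0177 to 0.0358).

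The type IX genes, whose chains coat the fibrils of cartilage, showed no call on depletion or rechallenge. COL9A2 was among the highest collagen genes per length at 2.66 to 4.15 FPKM over the groups, with means of 443 ± 63.4, 616 ± 122, 418 ± 20.5 and 396 ± 14.2 normalized counts in maintained VCaP-T, depleted VCaP-T, maintained VCaP-CT and rechallenged VCaP-CT. COL9A3 had 99.8, 100.8 and 59.5 in maintained VCaP-T, 88.5, 172.9 and 103.1 in depleted VCaP-T, 54.8, 59.6 and 36.1 in maintained VCaP-CT and 47.99, 34.3 and 33.1 in rechallenged VCaP-CT. It was lower in VCaP-CT than in VCaP-T at 0.1 nM T (log2 fold change -1.25, SE 0.30, adjusted p = 0.00487). Replicate 2 of depleted VCaP-T was the highest library for COL9A2 (757) and COL9A3, and without it the difference in COL9A3 was -0.91, under the fold threshold; without any 1 maintained VCaP-CT library its adjusted p was 0.0105 to 0.0254. At 10 nM T COL9A3 had a log2 fold change equal to -1.18 (SE 0.32, adjusted p = 0.0118) and was called without replicate 3 of maintained VCaP-T (adjusted p = 0.00679). With no library of the comparison left out, it was called by DESeq2 (adjusted p = 0.00249) and in 3 other edgeR fits. These were without the filter on low counts (0.00162), with the 6 libraries alone (0.000829) and with the replicate number as a block (0.00659). COL9A1 had 1.23 to 18.5 normalized counts over the 12 libraries. COL20A1 had 13.8, 15.2 and 12.8 in maintained VCaP-T, 30.1, 37.0 and 23.7 in depleted VCaP-T, 11.1, 7.57 and 9.02 in maintained VCaP-CT and 3.69, 3.12 and 7.47 in rechallenged VCaP-CT. It too was lower in VCaP-CT than in VCaP-T at 0.1 nM T (log2 fold change -1.68, SE 0.29, adjusted p = 0.000524).

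COL17A1 (ENSG00000065618.18, chromosome 10, 104031286 to 104086002, minus strand), the transmembrane collagen that anchors epithelial cells to the basement membrane through hemidesmosomes, had 28.7, 26.6 and 29.3 normalized counts in maintained VCaP-T and 76.0, 44.5 and 71.2 after depletion. Values in VCaP-CT were 60.8, 46.4 and 44.1 at 0.1 nM T and 18.5, 12.5 and 13.9 after rechallenge. The levels at low T overlapped between the lines, and the levels at high T did not. It rose on depletion (by 1.19 on the log2 scale, SE 0.23, adjusted p = 0.00369) and fell on rechallenge (-1.76, SE 0.26, adjusted p = 0.000432). The depletion call was lost without any 1 library of the comparison but replicate 2 of depleted VCaP-T (adjusted p = 0.0128 to 0.0219).

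COL7A1, the anchoring fibril below the basement membrane, and COL18A1, the source of the fragment endostatin, were not called on depletion or rechallenge. Their log2 fold changes on depletion were 0.33 and 0.245 (adjusted p = 0.0891 and 0.298). On rechallenge both were lower with no overlap of libraries, at -0.85 and -0.90 (adjusted p = 0.000905 and 0.00127), under the fold threshold. COL7A1 had 377, 395.5 and 327 normalized counts in maintained VCaP-T, 462, 509 and 412 in depleted VCaP-T, 223, 206 and 240.4 in maintained VCaP-CT and 113, 111 and 147 in rechallenged VCaP-CT. Its 4 groups did not overlap. It was lower in VCaP-CT at 10 nM T (log2 fold change -1.56, SE 0.14, adjusted p = 3.67e-06) and at 0.1 nM T (-1.045, SE 0.13, adjusted p = 5.46e-05), the second under the fold threshold without replicate 2 of depleted VCaP-T (-0.97) or of maintained VCaP-CT (-0.99). COL18A1 had 254, 219 and 163 in maintained VCaP-T, 239, 239.6 and 273 in depleted VCaP-T, 509, 501 and 485 in maintained VCaP-CT and 288, 217 and 295.5 in rechallenged VCaP-CT. The maintained VCaP-CT libraries stood alone, above all others (log2 fold change 1.237 against maintained VCaP-T, SE 0.16, adjusted p = 5.43e-05). Against depleted VCaP-T the log2 fold change was 0.99 and passed 1 without replicate 3 of either group (1.06 and 1.01). Of its exon length 16.4% overlaps SLC19A1 on the other strand, and fragments over both genes were not counted. COL26A1, a short secreted collagen with an EMI domain, had 180.5, 191 and 165 in maintained VCaP-T, 134, 150.6 and 150.6 in depleted VCaP-T, 330.3, 298 and 329 in maintained VCaP-CT and 251, 241 and 310.5 in rechallenged VCaP-CT. All VCaP-CT libraries lay above all VCaP-T libraries, and the difference was called at 0.1 nM T (log2 fold change 1.14, SE 0.12, adjusted p = 1.49e-05). The 2 other network-forming chains described, COL8A2 and COL10A1, had 1.04 to 30.1 and 5.16 to 18.7 normalized counts per library and were called in 0 of the comparisons.

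Between the lines, collagen genes differed in both directions. Of the maintained lines, VCaP-CT was higher than VCaP-T in 6 (COL2A1, COL4A3, COL5A2, COL6A1, COL14A1 and COL18A1) and lower in 4 (COL1A1, COL4A6, COL5A1 and COL28A1), where 12.7% of all genes were called, 5.61% as higher and 7.06% as lower. At 0.1 nM T it was higher in 3 (COL2A1, COL5A2 and COL26A1) and lower in 8 (COL1A1, COL4A2, COL4A6, COL7A1, COL9A3, COL16A1, COL20A1 and COL28A1), where 12.3% of all genes were called, 3.62% as higher and 8.68% as lower. At 10 nM T it was higher in 1 (COL5A2, which is 3.85% of the 26) and lower in 6 (COL1A1, COL4A6, COL5A1, COL7A1, COL16A1 and COL28A1), where 10.2% of all genes were called, 3.17% as higher and 7.08% as lower. These comparisons share libraries with each other and with depletion and rechallenge. COL5A2 was called as higher and COL1A1, COL4A6 and COL28A1 as lower in VCaP-CT in each of the 3 comparisons.

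At the adjusted p alone, whatever the fold, 7 collagen genes were higher and 7 lower between the maintained lines (14.8% and 15.7% of all genes), 4 and 10 at 0.1 nM T (13% and 16.4%), and 2 and 10 at 10 nM T (12.0% and 13.2%). Libraries did not overlap for 13 higher and 9 lower collagen genes between the maintained lines (34.6% and 34.4% of all genes), for 6 and 15 at 0.1 nM T (25.9% and 26.5%), and for 5 and 18 at 10 nM T (31.1% and 30.6%). The log2 fold change was above 0 for 15, 8 and 7 of the 26 in these comparisons, against 50.1%, 48.4% and 50.1% of all genes. Its median over the 26 was 0.39, -0.57 and -0.88, beside 0.00, -0.02 and 0.00 for all genes. So at a shared level of T more of the collagen genes lay lower than higher in VCaP-CT. Some of the calls were lost without 1 library. Between the maintained lines this held for COL14A1 without any 1 of the 6 libraries but replicate 3 of VCaP-T (adjusted p = 0.0174 to 0.0383). At 0.1 nM T it held for COL2A1 without replicate 2 or 3 of depleted VCaP-T (log2 fold change 0.90 and 1.03) or replicate 1 or 3 of maintained VCaP-CT (0.89 and 1.08), with an adjusted p of 0.00258 without replicate 2 of depleted VCaP-T and 0.0119 to 0.023 without the others. At 10 nM T it held for COL5A1 without replicate 1 or 2 of maintained VCaP-T or replicate 1 or 3 of rechallenged VCaP-CT (adjusted p = 0.0113 to 0.0176). COL27A1 was not called between the lines with all 12 libraries in 1 model. It was called at 0.1 nM T without replicate 2 of depleted VCaP-T (log2 fold change -1.13, adjusted p = 0.000103). At 10 nM T it was called without replicate 3 of rechallenged VCaP-CT (-1.65, adjusted p = 0.00925) and with the 6 libraries alone (-1.18, adjusted p = 0.00704).

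**Figure D5:**
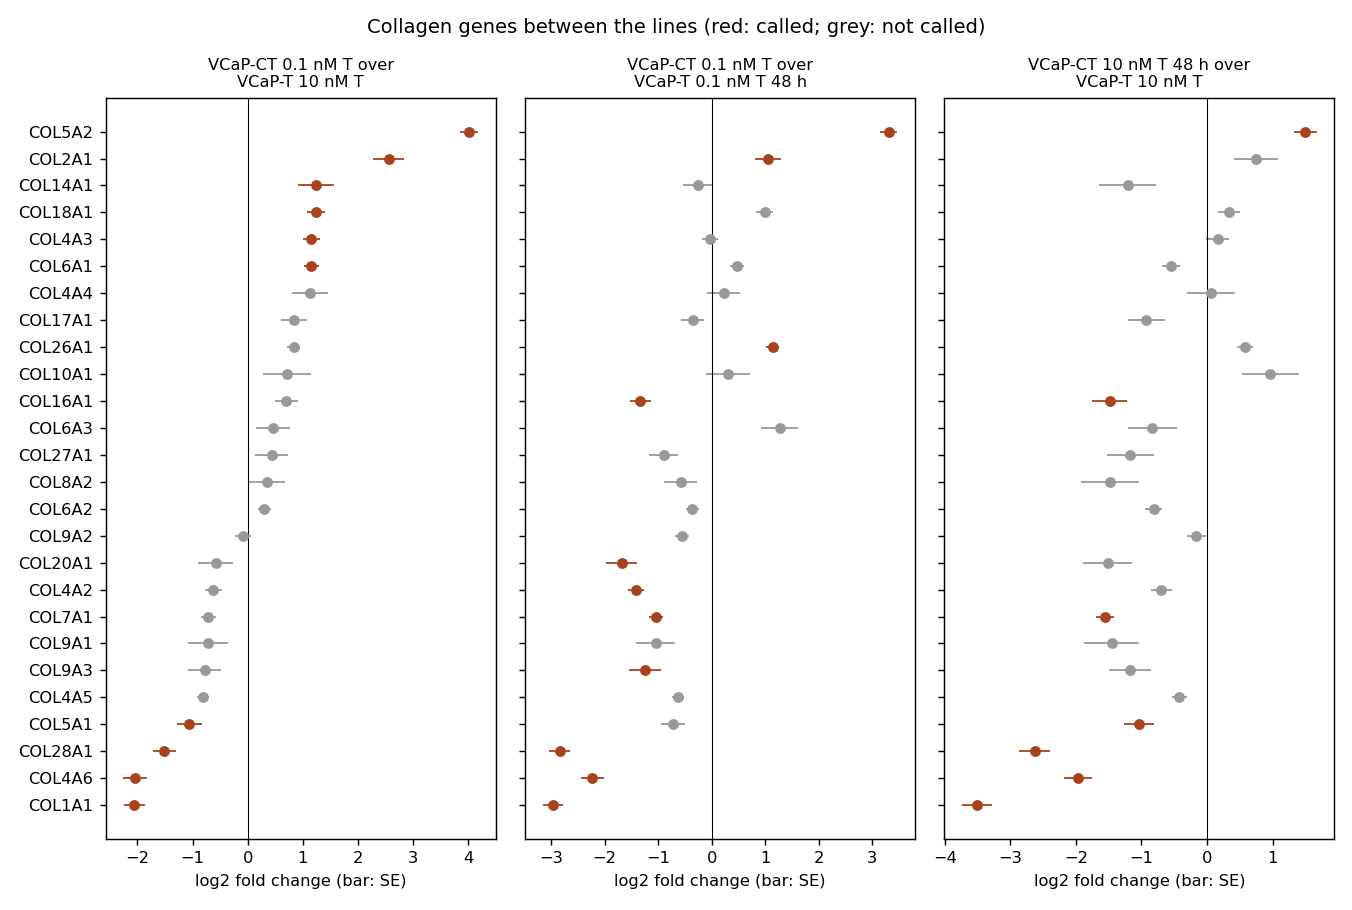
Log2 fold change of VCaP-CT over VCaP-T for the 26 described collagen genes, with bars of 1 SE, in 3 panels: the maintained lines, both at 0.1 nM T and both at 10 nM T, with genes ordered by the first panel. Called genes are red; COL5A2 is at the right in each panel (4.01, 3.31 and 1.50) and COL1A1 at the left (-2.06, -2.97 and -3.51).

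The response to T itself was compared between the lines as the log2 change from 0.1 to 10 nM T in VCaP-T minus that in VCaP-CT. COL5A2 was the 1 collagen gene called, with a difference of 1.81 (SE 0.24, adjusted p = 0.00194), which is 3.85% of those tested. Of all genes 0.564% were called, 0.115% with a positive and 0.449% with a negative difference. At an unadjusted p under 0.05, 7 collagen genes had a positive and 1 a negative difference. All genes were not counted at that p, so these numbers have no background. The median difference was 0.31 for the collagen genes and -0.01 for all genes. At the adjusted p alone the shares of all genes were 0.162% and 0.804%, and COL5A2 was again the 1 collagen gene. Its log2 change with T was -2.52 in VCaP-CT and -0.70 in VCaP-T. With the replicate number as a block its difference was again 1.81 and its adjusted p 0.0104, above the threshold of 0.01. COL6A1 had a difference of 1.02 (SE 0.19, adjusted p = 0.0153) and was called by DESeq2 (adjusted p = 8.68e-05) and without replicate 3 of maintained VCaP-T (0.00992). COL6A3 had the largest estimate, 2.11 (SE 0.51, adjusted p = 0.0522). For the 7 genes that rose on depletion the difference was -0.215 to 0.95 with an adjusted p of 0.398 or more, which does not show that the lines responded alike.

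The 7 genes that rose on depletion were also placed by their level in maintained VCaP-CT, at which that line grows. A gene counted as adaptive where the maintained lines gave an adjusted p over 0.1 or where VCaP-CT lay below maintained VCaP-T, and as non-adaptive where the lines at 0.1 nM T gave an adjusted p over 0.1 or where VCaP-CT lay above the depleted cells. COL27A1 and COL28A1 were adaptive by this rule. COL27A1 was at 33.7 ± 2.01 normalized counts in maintained VCaP-CT against 24.99 ± 1.92 in maintained VCaP-T (adjusted p = 0.27), although these libraries did not overlap. COL28A1 was at 34.4 ± 1.47, below 98.7 ± 12.8 (adjusted p = 9.75e-05). It thus passed only by lying below maintained VCaP-T and was not back at that level. COL2A1, COL4A3, COL14A1 and COL17A1 were non-adaptive, and COL16A1 met neither rule. All but COL4A3 were also called on rechallenge. The 250 bases before the RefSeq starts of the 2 adaptive genes, on the strand of the gene and with the same boxes in capitals, are shown to set them beside each other.
COL27A1, chr9:114155287-114155536, plus strand: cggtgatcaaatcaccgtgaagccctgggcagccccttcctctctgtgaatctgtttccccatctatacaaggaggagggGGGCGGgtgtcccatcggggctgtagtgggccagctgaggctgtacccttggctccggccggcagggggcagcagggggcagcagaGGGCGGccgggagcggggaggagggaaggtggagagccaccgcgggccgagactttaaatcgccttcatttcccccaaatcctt
COL28A1, chr7:7535874-7536123, minus strand: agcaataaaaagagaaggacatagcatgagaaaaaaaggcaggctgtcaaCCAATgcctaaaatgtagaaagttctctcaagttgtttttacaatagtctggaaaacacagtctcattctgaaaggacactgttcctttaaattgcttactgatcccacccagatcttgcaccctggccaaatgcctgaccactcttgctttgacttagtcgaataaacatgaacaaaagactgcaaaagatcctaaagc
COL27A1 has 2 GC boxes and 64.4% G and C, and COL28A1 has 1 CCAAT box and 39.6% G and C.

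Promoters of 250 bases were found in RefSeq (GRCh38.p14) for 19 of the 26 described genes, in 25 windows; COL1A1, COL2A1, COL5A2, COL6A1, COL9A3, COL14A1 and COL20A1 were not matched. On either strand, the androgen receptor half-site AGAACA was in 3 of the 25 windows, of COL5A1 and COL9A1, and in 12.4% of 35116 windows of all genes. It was in 0 of the 6 windows of genes called on depletion or rechallenge, too few windows to compare with that share. These leave out COL1A1, COL2A1, COL5A2, COL6A1 and COL14A1, which were called but not matched. The full element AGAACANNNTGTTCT, which holds the half-site, was in 0 of 25 windows and in 0.00285% of all. The GC box was in 13 of 25 windows (42.6% of all), the CCAAT box in 8 (32.0%) and TATAAA in 6 (10.7%). These are counts of letters and say nothing of binding.

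Some of the genes that modify, secrete, cleave, crosslink, bind or degrade collagen were called with T, in both directions. Of 62 such genes 48 were tested. On depletion 2 rose and 1 fell, where 3.14% of all genes were called, and on rechallenge 3 rose and 1 fell, where 5.14% were. The medians were -0.06 and 0.06 beside 0.04 and -0.02 for all genes. At an unadjusted p under 0.05, 13 were higher and 12 lower on depletion, and 17 higher and 10 lower on rechallenge. Without the share of all genes at that p, which was not counted, these numbers do not set the list apart from other genes. Among the hydroxylases, whose products make the helix stable and open to crosslinking, P4HA3 rose on depletion from 14.9, 9.51 and 15.6 to 40.9, 43.2 and 49.5 normalized counts (log2 fold change 1.73, SE 0.30, adjusted p = 0.00174). PLOD2, a lysyl hydroxylase, fell from 234, 222 and 256 to 122, 124 and 99.0 (log2 fold change -1.05, SE 0.22, adjusted p = 0.00558). P4HA2, a prolyl hydroxylase subunit, rose on rechallenge from 210.5, 222 and 202 to 450.4, 404 and 466 (log2 fold change 1.06, SE 0.11, adjusted p = 2.81e-05). MEP1A, a protease that can trim procollagen, rose on depletion from 2.12, 1.90 and 4.58 to 52.6, 30.9 and 52.6 (log2 fold change 3.92, SE 0.38, adjusted p = 3.21e-05) and fell on rechallenge from 23.1, 31.2 and 21.0 to 6.15, 3.12 and 4.27 (-2.47, SE 0.39, adjusted p = 0.000644). It was the 1 gene of this list called in both. LOX, the enzyme that starts crosslinks between collagen molecules, rose on rechallenge from 267, 291 and 297 to 714, 801 and 623 (log2 fold change 1.32, SE 0.12, adjusted p = 9.88e-06), the opposite direction to the collagen genes called there. ITGA11, a subunit of a receptor for fibrillar collagen, rose on rechallenge too, from 10.3, 1.89 and 11.02 to 43.1, 29.1 and 35.2 (log2 fold change 2.18, SE 0.40, adjusted p = 0.00167).

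More genes of this list were called between the lines, as was so for all genes (12.7% between the maintained lines, 12.3% at 0.1 nM T and 10.2% at 10 nM T). Between the maintained lines 5 of the 48 were higher in VCaP-CT (ADAMTS3, P3H2, CD44, MEP1A and LOXL4) and 6 lower (MIA2, LOX, PLOD2, ITGA11, COLGALT2 and MMP1). ADAMTS3, a protease that removes the amino-terminal propeptide of procollagen, had 55.2, 52.3 and 60.4 normalized counts in maintained VCaP-T and 2212, 2358 and 2316 in maintained VCaP-CT (log2 fold change 5.35, SE 0.10, adjusted p = 1.86e-11). P3H2, a prolyl 3-hydroxylase that acts on basement membrane collagen, had 25.5, 23.8 and 32.0 against 395, 438 and 466 (log2 fold change 3.99, SE 0.14, adjusted p = 1.24e-09). Both were also higher in VCaP-CT at each shared level of T, and neither was called on depletion or rechallenge. CD44, a matrix receptor, had means of 581 ± 37.3 and 1433 ± 62.1 (log2 fold change 1.30, SE 0.08). PLOD2 was lower in VCaP-CT in each of the 3 comparisons, with 237 ± 17.6 in VCaP-T and 42.9 ± 13.7 in VCaP-CT, both maintained (log2 fold change -2.48, SE 0.24, adjusted p = 5.03e-06), and LOX had 936 ± 22.1 and 285 ± 15.6 (-1.72, SE 0.12, adjusted p = 3.17e-07). At 0.1 nM T, 2 were higher (P3H2 and ADAMTS3) and 7 lower (MIA2, P4HA3, LOX, CTSK, ITGA1, PCOLCE and PLOD2), and at 10 nM T, 3 were higher (ADAMTS3, P3H2 and CD44) and 3 lower (PLOD2, P3H3 and PCOLCE). PCOLCE, which speeds the removal of the carboxy-terminal propeptide, had 56.1 ± 12.2, 103 ± 25.4, 23.1 ± 2.98 and 8.83 ± 6.59 in maintained VCaP-T, depleted VCaP-T, maintained VCaP-CT and rechallenged VCaP-CT. In the difference of responses 0 of the 48 were called by edgeR and 0 by DESeq2. At an unadjusted p under 0.05, 5 were higher and 12 lower, again without a count of all genes.

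The remaining 18 collagen genes had under 10 counts on average in each group: COL1A2, COL3A1, COL4A1, COL5A3, COL6A5, COL6A6, COL8A1, COL11A1, COL11A2, COL12A1, COL13A1, COL15A1, COL19A1, COL21A1, COL22A1, COL23A1, COL24A1 and COL25A1. The highest of these was COL12A1 in rechallenged VCaP-CT, at 9.63 ± 3.29 normalized counts, against 2.18 ± 1.96 in maintained VCaP-T. COL11A2 (chromosome 6, 33162681 to 33192499, minus strand) and COL19A1 are listed at 0 in all 12 libraries. For COL11A2 this cannot be read as absence of the RNA: 17 of its 20 nearest genes were also under a mean of 1 count, and so were 126 of 136 protein-coding genes in the major histocompatibility complex region around it (92.7%, against 22.1% of all protein-coding genes), among them TUBB, VARS1 and CSNK2B, genes that cells in general use, at 0. The collagen receptor DDR1 lies in the same region and is listed at 0 too.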

How the data were processed

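The deposited values used here are counts: for each gene, the authors gave a whole number of fragments. Poly(A) RNA was prepared with a stranded mRNA kit, and per the file headers and the labels the reads were aligned to GRCh38 with STAR 2.5.4b and counted over exons of Gencode release 28 with featureCounts 1.6.2, with strand not used and fragments of several genes or places left out. The authors' normalized table (DESeq2 1.24.0, R 3.6.1) was not used. Symbols were joined to 57754 of 58381 identifiers, and biotypes came from Gencode release 44. The 12 libraries in 4 groups were fitted in 1 model with edgeR 4.0.16 in R 4.3.3 (quasi-likelihood test, TMM, default filter on low counts, Benjamini-Hochberg adjustment over 19162 genes), which was tested on simulated data. Called genes had an adjusted p under 0.01, moved by more than 1 on the log2 scale and had medians over 13 normalized counts apart, the last not required for the difference in response. FPKM used TMM-scaled library sizes and the exon length in the files. Alternatives were RLE scaling, no filter, DESeq2 1.42.0, a replicate block, the 6 libraries of each comparison alone, each library left out, and the adjusted p alone. The named genes were collagen genes called in a comparison with their chain partners, and of the assembly and turnover list those called. The members, lists and tests were chosen with earlier results of these data known. Counting error sets the precision of genes with few counts.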

Additional observations from a re-analysis of the deposited data

Results flagged for a closer look

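COL5A2 stood out because its response to T differed between the lines in a test of the difference itself: the log2 change from 0.1 to 10 nM T in VCaP-T minus that in VCaP-CT came to 1.81 by an interaction term in edgeR (SE 0.24, adjusted p = 0.00194), with each library lower at 10 nM T than those at 0.1 nM T in both lines. The difference was not called with the replicate number as a block (1.81, adjusted p = 0.0104).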

How the results depend on the processing

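Over the alternatives no fold change of a called collagen gene reversed. Changes of sign in collagen genes that were not called were not counted, and named genes outside the collagen genes were not followed 1 by 1. Of the values of the tested collagen genes, 1750 kept their side of the threshold, 65 fell short of it and 25 passed it. The 7 calls on depletion became 11 at the adjusted p alone, 1 with its 6 libraries alone and 3 to 9 with 1 library left out. Of all genes, 3.14% were called on depletion, 1.2% with its 6 libraries alone and 2.07% to 3.65% with 1 library left out. The 3 assembly and turnover genes called on depletion became 1 with its 6 libraries alone and 1 to 3 with 1 library left out. The 7 calls between the lines at 10 nM T became 12 at the adjusted p alone, where 12.0% of all genes were higher and 13.2% lower. In the difference of responses, 1 collagen gene became 2 without the filter on low counts and 2 by DESeq2, with 1 to 2 when a library was left out, and 0 assembly and turnover genes became 0 to 1. Of all genes, 0.564% had a called difference, 0.453% without that filter, 0.553% by DESeq2 and 0.28% to 1.19% with a library left out. The 2 adaptive genes became 0 with 6 libraries alone and 1 to 3 with a library left out, and the 4 non-adaptive became 0 and 1 to 4. The cause of these changes was not tested, except that the last fits hold fewer libraries.

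Same-numbered samples showed no shared deviation from their group means. Of 18 pairs of them 0 had deviations that correlated above 0.1 (-0.168 to 0.055), and 2 of 12 samples correlated best with their own number. With 3 libraries per group this cannot exclude that the numbers pair the samples. With the replicate block, calls on depletion were 5 (2.65% of all genes), on rechallenge 9 (4.73%) and in the lines' own media 9 (12.4%). At 0.1 nM T they were 11 (11.9% of all genes) and at 10 nM T 8 (9.92%). In that fit 1 gene was adaptive, and 0 collagen genes had a called difference in response (0.334% of all genes).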
